A study of Mus musculus with 23 samples.

Results

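The 10 DNA replication licensing genes Mcm2, Mcm3, Mcm4, Mcm5, Mcm6, Mcm7, Mcm10, Cdt1, Cdc6, and Gmnn were described across 4 groups of female mice. They were chosen by gene symbol, and all 10 were found among the 17644 genes of the TPM table (transcript abundance scaled to transcript length and library size) and the 67228 entries of the count table. Gene expression had been measured by bulk RNA-Seq of marrow-depleted femur and tibia, with 1 library per mouse, at 11 weeks of age. WT mice were either nondiabetic (WT Control, n = 5) or had type 1 diabetes (WT T1D, n = 6), and so were the mice with a global Sarm1 knockout (KO Control, n = 6, and KO T1D, n = 6). Diabetes of 3 weeks had been caused by streptozotocin, a toxin of pancreatic β cells, given at 100 mg/kg, whereas Control mice had received saline. All mice were on a C57BL/6N background. The study mentions a controversy over possible limited carryover of another strain's genetic material on chromosome 11 in Sarm1 knockout mice. It describes its own line as extensively backcrossed. Of the members, Cdc6 is on chromosome 11, and such carryover was not tested here. By the study's methods, some WT mice were purchased and the others were littermates of the knockouts. The knockout was global and thus not limited to 1 cell type. Marrow had been spun out of the bones, which does not remove all hematopoietic cells. Mice were housed in groups, but which of them shared a litter or cage was not given in the sources used here. The tests treated each mouse as independent, so effects of a shared litter or cage were not taken into account.

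Licensing is the step that prepares DNA for copying. During G1 phase, CDC6 and CDT1 work with the origin recognition complex to load the ring formed by MCM2 to MCM7, which is the core of the replicative helicase, onto DNA at origins of replication. MCM10 then acts in S phase, when the loaded helicase is activated, and geminin, the product of Gmnn, binds CDT1 and prevents an origin from being licensed again in the same cell cycle. These genes are expressed in dividing cells and are targets of E2F transcription factors. In marrow and bone, erythroblasts and myeloid and lymphoid progenitors divide rapidly, whereas osteocytes and mature neutrophils do not divide.

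Because the members varied together across mice, their promoters are shown first. RefSeq promoter windows of GRCm38.p6, each from 250 bases before to 50 bases after its own start, were available for 8 members (Mcm7 has 2 windows). For Mcm5, Mcm7, and Cdc6, that start was not the first base of the gene as annotated. The Cdc6 window, chr11:98907901-98908200, lay wholly downstream of the annotated gene start at 98907709. Mcm4 and Gmnn had no window in the table. The E2F words TTTCCCGC, TTTCGCGC, TTTGCCGC, and TTTGGCGC were searched on both strands and could overlap each other. At least 1 word was present in any window of 6 of the 8 members. Counted by gene in the same way, 4.4% of the 11351 tested genes with a window had a word. Counted by window, the share was 2.26% of all 32851 promoters. The stretches that hold these words are printed below 5′ to 3′ on the strand of the gene, with E2F words of either strand in capitals.
Mcm3, chr1:20820263-20820313, minus strand: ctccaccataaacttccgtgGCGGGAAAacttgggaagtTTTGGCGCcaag
Mcm5, chr8:75109336-75109387, plus strand: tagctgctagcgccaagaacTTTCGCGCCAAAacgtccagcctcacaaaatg
Mcm6, chr1:128359725-128359835, minus strand: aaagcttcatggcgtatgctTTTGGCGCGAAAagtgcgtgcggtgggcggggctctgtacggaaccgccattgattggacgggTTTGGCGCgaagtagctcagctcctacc
Mcm7, chr5:138171840-138172068, minus strand: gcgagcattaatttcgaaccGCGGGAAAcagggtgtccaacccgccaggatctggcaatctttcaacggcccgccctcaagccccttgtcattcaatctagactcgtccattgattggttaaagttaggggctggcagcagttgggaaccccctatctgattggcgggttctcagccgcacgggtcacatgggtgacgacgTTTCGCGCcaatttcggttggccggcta
Cdt1, chr8:122568027-122568064, plus strand: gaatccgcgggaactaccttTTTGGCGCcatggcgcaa
Cdc6, chr11:98907993-98908040, plus strand: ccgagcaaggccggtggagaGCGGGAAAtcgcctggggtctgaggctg

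Mcm6 held 3 words, of which a pair overlapped on opposite strands. Mcm3, Mcm5, and the first Mcm7 window held 2 words each, and those of Mcm5 also overlapped. Cdt1 and Cdc6 held 1 word each. The windows of Mcm2 and Mcm10 held none of these letters. In the other replication and cell cycle lists described below, apart from mitosis, 21 of 67 genes with a window held an E2F word, compared with 1 of 14 mitosis genes and 0 of 10 erythroid genes. The CCAAT box, searched as CCAAT on both strands, was in 6 of 8 members and 13 of 14 mitosis genes with a window. Counted by gene in the same way, it was in 36 of 67 genes of the other lists and 42.9% of the 11351 tested genes. Counted by window, the share was 37.4% of all promoters. A match is a description of the letters and was not tested as a binding site.

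All 10 members were well covered. Their counts per mouse ranged from 219 to 471 for Gmnn, the least abundant in counts, and from 3320 to 6064 for Mcm2. Total counts ranged from 16938101 to 20135592 per mouse. Mcm7 overlaps Ap4m1 by 91 bases at its start (Ap4m1 had 308 to 456 counts), and its introns hold the microRNA genes Mir25, Mir93, and Mir106b, which a poly(A) library does not measure. Sarm1 had 5 to 32 counts per mouse and its counts did not separate the genotypes. In nondiabetic mice, it was lower in the libraries labelled KO, with 1.17 ± 0.403 CPM (SD, n = 5) in WT Control compared with 0.799 ± 0.503 (n = 6) in KO Control. In T1D mice it was higher in KO, with 0.687 ± 0.293 CPM (n = 6) in WT compared with 1.19 ± 0.259 (n = 6). These counts do not check the genotype labels, and KO below refers to the label.

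WT T1D mice A3905 and A3906 stood apart from all other libraries. Their mean log2(CPM + 0.5) over 8 osteoblast markers, including Col1a1 and Bglap, was 7.75 and 7.45, whereas every other mouse was between 10.45 and 11.37. Hemoglobin genes made up 46.9% and 46.7% of TPM in these mice, compared with a median of 28.9% in WT Control. Without this pair, none of the 14317 genes tested passed by edgeR for T1D in WT mice, which includes every gene named below as having risen or fallen. The members and the marker lists are given with and without it.

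In WT Control, the abundance of the members was compared in TPM, which corrects for transcript length. Mcm7 was the most abundant, with 146.7 ± 7.5 TPM (SD, n = 5), and did not overlap any other member. It was followed by Mcm2 with 104.5 ± 5.77, Mcm5 with 97.9 ± 6.16, Mcm6 with 82.7 ± 6.49, and Mcm3 with 74.0 ± 3.19 TPM. The ranges of Mcm2 and Mcm5 overlapped, as did those of Mcm6 and Mcm3. Within mice, however, Mcm6 was above Mcm3 in 5 of 5 mice, and Mcm2 was above Mcm5 in 4 of 5. The loaders Cdt1 (55.3 ± 5.15 TPM) and Cdc6 (53.2 ± 5.29 TPM) were level with Mcm4, which was the least abundant subunit of the ring at 54.5 ± 4.27 TPM. Gmnn (27.7 ± 5.62 TPM) and Mcm10 (16.2 to 22.8 TPM) were lowest. Gmnn was above Mcm10 in each of the 5 mice.

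For WT Control and WT T1D, respectively, Mcm7 transcripts made up 26.2% ± 0.0905 and 26.2% ± 0.805 of the summed TPM of Mcm2 to Mcm7. For KO Control and KO T1D, the share of Mcm7 was 24.6% ± 0.73 and 25.8% ± 1.31. The Mcm7 share, 1 of 6 looked at, was lower in KO Control (23.7% to 25.6%) than in WT Control (26.1% to 26.3%). In T1D mice, the ranges of the genotypes overlapped (25.1% to 27.2% in WT and 24.3% to 28.0% in KO). Mcm4 made up 9.11% to 9.72% on average in all 4 groups. In protein, the 6 subunits form the ring in equal number, whereas Mcm7 transcripts exceeded Mcm4 transcripts by 2.4-fold to 3.08-fold in every mouse. The ratio of Cdt1 to its inhibitor Gmnn was 2.06 ± 0.466 without and 2.22 ± 0.359 with T1D in WT mice, and 2.0 ± 0.0818 and 2.36 ± 0.367 in KO mice, with overlapping ranges. These proportions are descriptions and were not tested.

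The first question was whether T1D altered the licensing genes in WT mice. In normalized counts, all 10 members had a higher mean in WT T1D than in WT Control (6 of 10 in TPM), by a median of 0.30 on the log2 scale, but only 2 members passed the test. Cdc6 and Mcm3 rose by 1.4-fold and 1.27-fold. Over all 14364 genes tested, 2.33% passed (334 genes), 48.1% were higher in WT T1D, and the median gene differed by -0.011 on the log2 scale. Here and below, expression is given as CPM (counts scaled to library size, with TMM scaling), and tests used edgeR's quasi-likelihood model of all 23 mice with Benjamini-Hochberg adjustment over all genes tested.

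Cdc6, the loader that recruits CDT1 and the ring to origins, had 73.9, 79.1, 79.2, 88.7, and 88.9 CPM in the WT Control mice. In WT T1D, Cdc6 ranged from 94.4 to 142.9 CPM with a median of 109.6. All 6 WT T1D mice were above every WT Control mouse, and the highest were A3906 (142.9) and A3905 (128.2). The log2 fold change was 0.48 ± 0.0924 (SE), with an edgeR adjusted p of 0.0236. When each of the 23 mice was left out in turn, Cdc6 passed in 17 fits. Without A3905 and A3906, Cdc6 differed by 0.34 ± 0.082 and did not pass (edgeR adjusted p = 0.189).

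Mcm3, a subunit of the ring, had 130.4, 138.0, 141.4, 144.6, and 154.9 CPM in WT Control. In WT T1D, Mcm3 ranged from 153.4 to 197.5 CPM with a median of 183.9. The lowest WT T1D mouse, A3909, fell within the WT Control range, and the other 5 were above it. The log2 fold change of Mcm3 was 0.34 ± 0.0896 (edgeR adjusted p = 0.049), close to the threshold, and Mcm3 passed in 6 of the 23 fits that left out 1 mouse. Neither Cdc6 nor Mcm3 passed with the WT groups fitted alone, or when any 1 of WT Control A3767, A3903, A3904, and A3907 or WT T1D A3905 and A3906 was left out. Over all genes tested, at most 6 passed upward and at most 7 downward in these fits. The difference of Mcm3 was 0.28 ± 0.0979 without A3905 and A3906, with an edgeR adjusted p of 0.324.

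The other ring subunits had differences of a similar size that missed the threshold. Mcm6 had 146.2, 164.7, 167.9, 172.7, and 178.1 CPM in WT Control and ranged from 178.1 to 220.7 CPM in WT T1D with a median of 211.0. All 6 WT T1D mice were above the WT Control mice, but the closest pair was level at this precision. The log2 fold change of Mcm6 was 0.29 ± 0.09 with an edgeR adjusted p of 0.0685. For Mcm2, the WT Control mice had 211.3, 216.5, 240.3, 240.8, and 267.7 CPM, and WT T1D ranged from 242.2 to 343.3 CPM with a median of 294.8. The groups overlapped, with 4 of 6 WT T1D mice above every control. Its log2 fold change was 0.33 ± 0.111 (edgeR adjusted p = 0.0914). Mcm6 differed by 0.23 and Mcm2 by 0.21 without A3905 and A3906.

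Mcm7 ranged from 212.7 to 253.3 CPM in WT Control with a median of 232.1, whereas values in WT T1D were between 231.9 and 329.9 CPM with a median of 291.9, a log2 difference of 0.30 ± 0.0956 (edgeR adjusted p = 0.0731). Mcm5 ranged from 170.1 to 210.9 CPM in WT Control, whereas values in WT T1D were between 195.7 and 252.4 CPM, a log2 difference of 0.28 ± 0.0912 (edgeR adjusted p = 0.0846). Mcm4 ranged from 112.9 to 141.6 CPM in WT Control, whereas values in WT T1D were between 133.1 and 170.8 CPM, the smallest log2 difference of the ring at 0.22 ± 0.0929 (edgeR adjusted p = 0.162). For each of these subunits the groups overlapped, and 4 of 6 WT T1D mice were above every control. The differences were 0.19 for Mcm7, 0.23 for Mcm5, and 0.14 for Mcm4 without A3905 and A3906.

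The partners of the ring were less uniform. Cdt1, which delivers the ring to the origin, had 72.4, 72.5, 73.3, 88.7, and 93.2 CPM in WT Control and ranged from 80.5 to 130.2 CPM in WT T1D with a median of 110.3. In 4 of 6 WT T1D mice, Cdt1 was above every control, and the log2 difference of 0.41 ± 0.117 was second in size to that of Cdc6 (edgeR adjusted p = 0.0584; 0.29 ± 0.122 without A3905 and A3906). Gmnn had 14.7, 14.9, 16.2, 17.7, and 21.7 CPM in WT Control and ranged from 14.3 to 26.7 CPM in WT T1D. Only A3905 and A3906 were above the controls, and the lowest WT T1D mouse was below them all. The log2 difference of Gmnn was 0.29 ± 0.153 (edgeR adjusted p = 0.278), and 0.072 ± 0.146 without A3905 and A3906. Mcm10 ranged from 38.8 to 58.9 CPM in WT Control, whereas values in WT T1D were between 44.5 and 57.9 CPM, with no WT T1D mouse above every control and a log2 difference of 0.10 ± 0.103 (edgeR adjusted p = 0.589), or 0.029 ± 0.113 without A3905 and A3906.

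**Figure D1:**
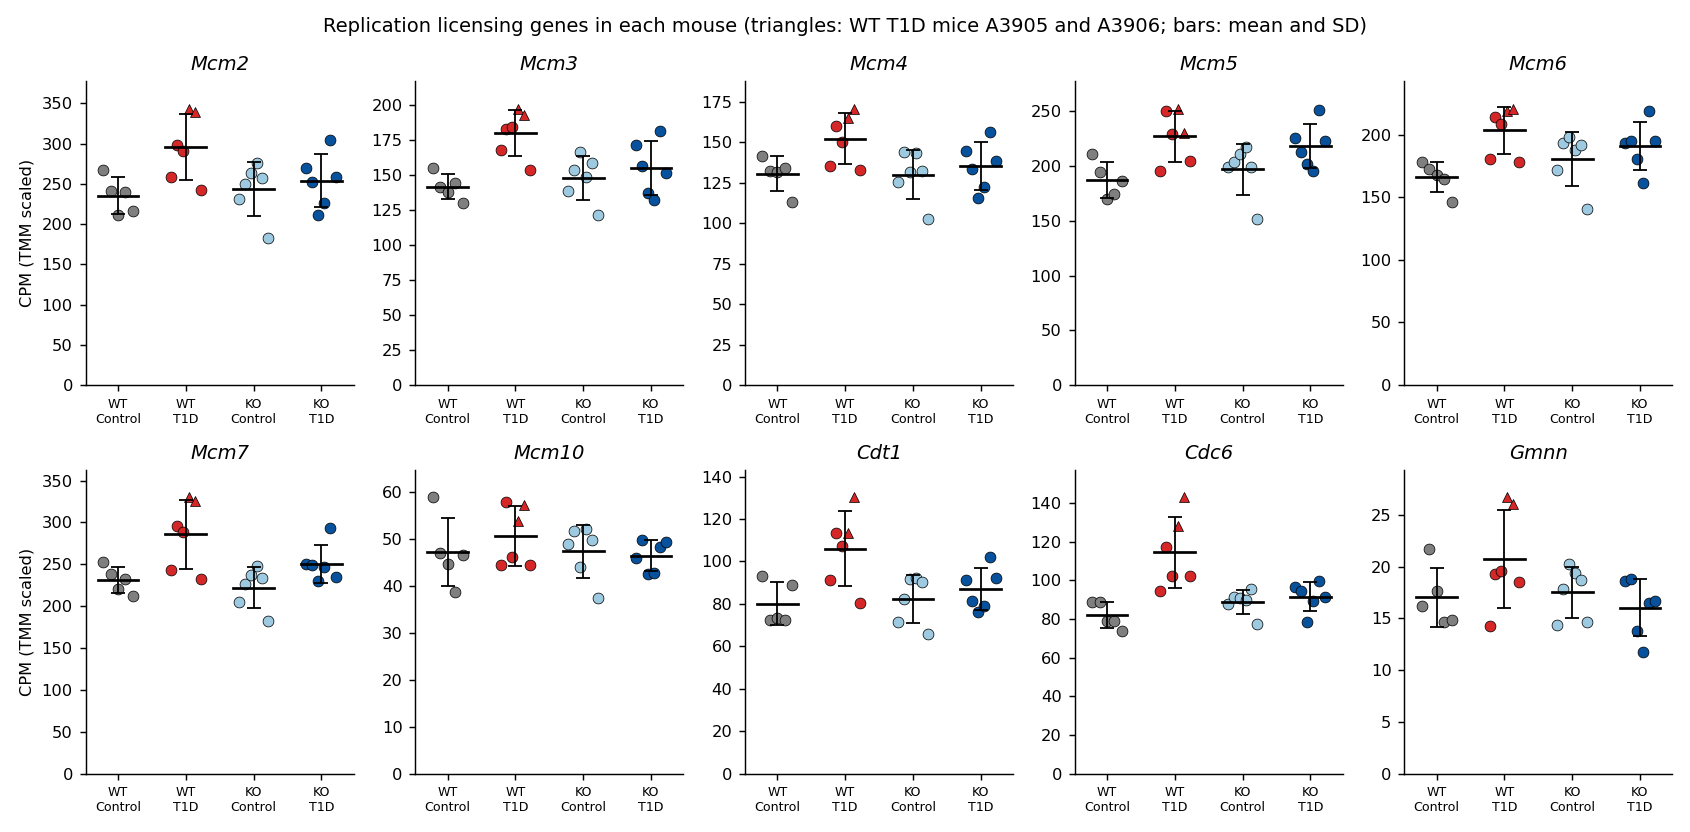
CPM (y axis, from 0) of each licensing gene in each of the 23 mice by group (x axis), with 1 point per mouse, horizontal lines for the group mean, and error bars for the SD. For Cdc6, the 6 WT T1D mice (94.4 to 142.9 CPM) were above the WT Control mice (73.9 to 88.9 CPM), and the triangles for A3905 and A3906 were among the highest values of most members.

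Within WT T1D, the same mice were high for most members. A3905 or A3906 had the highest value for 9 of the 10 members, and A3909 had the lowest value for 7. In WT Control, A1757 was highest for 9 members. This mouse was the only WT Control mouse with an ID in the A17 series, which also included 3 of the 6 WT T1D mice and no KO mice. Among the mice with IDs from A36 to A39, the median log2 difference over the members was 0.40 and 6 members passed, where 15.5% of 14278 genes passed, but WT T1D then consisted of A3905, A3906, and A3909. In the A17 series, which has 1 Control mouse and thus no test, 9 members had a higher mean in WT T1D, with a median log2 ratio of 0.13. The mean log2(CPM + 0.5) of Mcm2 to Mcm7 was 7.61 in A1757, compared with 7.59, 7.83, and 7.78 in the T1D mice of that series. Mcm10 was the member in the other direction, with 58.9 CPM in A1757 and 44.5, 57.9, and 46.2 CPM in the T1D mice. With the ID series added as a term to the edgeR model, an alternative chosen after the data were seen, the median over the members was 0.32 and 1 member passed, where 2.53% of all genes passed. This was Cdc6 (0.53 ± 0.0986, edgeR adjusted p = 0.0225), whereas Mcm3 was at 0.33 ± 0.0947 (edgeR adjusted p = 0.0581). Without A3905 and A3906, all 10 members were still higher in WT T1D, with a median of 0.22. By edgeR, 5 members had an unadjusted p under 0.05, as did 1571 of all 14317 genes tested. Neither Cdc6 nor Mcm3 nor any of the 14317 genes passed.

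The direction of these differences depended on the scale. In TPM, Cdc6 had a mean of 53.2 ± 5.29 (SD, n = 5) in WT Control against 59.9 ± 5.84 (n = 6) in WT T1D, Mcm3 had 74.0 ± 3.19 and 76.6 ± 3.5, and Mcm2 had 104.5 ± 5.77 and 106.7 ± 3.85. Their groups overlapped on this scale. The summed TPM of Mcm2 to Mcm7 was 560.3 ± 27.5 in WT Control and 561.7 ± 25.5 in WT T1D. With limma on log2(TPM + 1), the median log2 difference over the members was 0.0041, Mcm4, Mcm5, Mcm10, and Gmnn were lower in WT T1D, and none of the members passed. The median gene was lower by 0.24 on that scale (log2 difference of -0.24), where hemoglobin genes took up 33.2% to 46.9% of TPM in WT T1D and 28.5% to 36.8% in WT Control. Relative to the median gene, the members were higher by 0.24 in TPM and by 0.31 in CPM. After each mouse was centered on its median gene, all 10 members were higher again, and Mcm3 and Cdc6 passed.

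**Figure D2:**
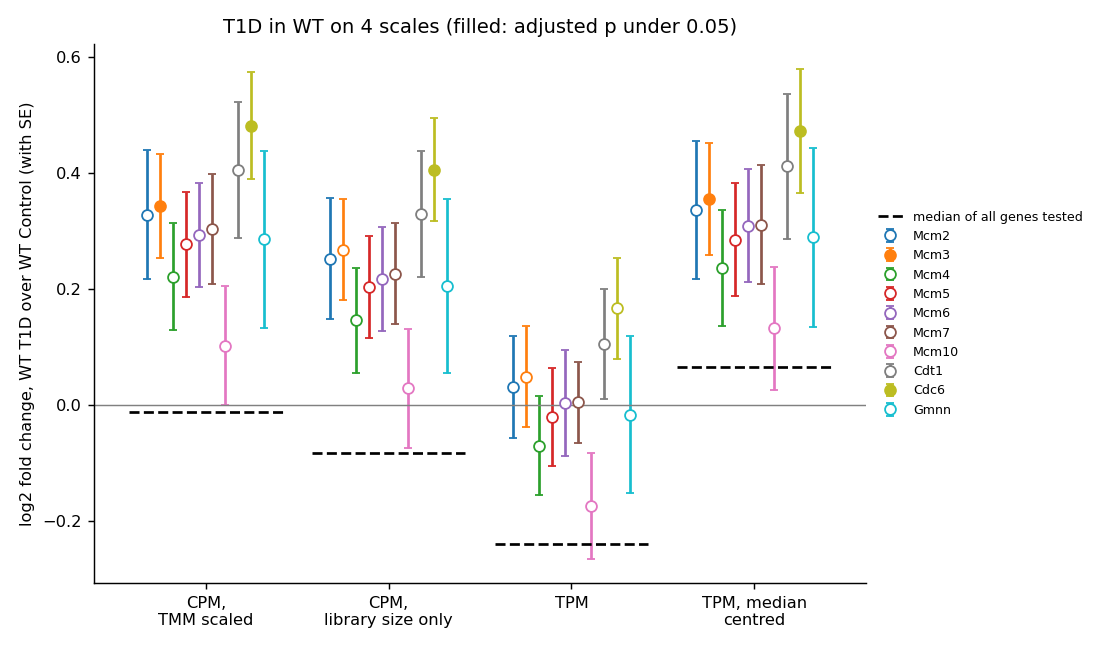
log2 fold change of each member for WT T1D over WT Control (y axis, points with SE) on 4 scales (x axis), with filled points for an edgeR or limma adjusted p under 0.05 and dashed lines for the median of all genes tested. The members lay around a median of 0.0041 in TPM and 0.30 in CPM, while the median gene lay at -0.24 and -0.011.

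The next question was whether T1D altered these genes in KO mice. None of the 10 members passed in KO mice, and 8 were higher in KO T1D than in KO Control (7 in TPM), with a median log2 difference of 0.063. The median was 0.0073 without KO Control A3766 (6 of 10 higher) and 0.012 without KO T1D A3675 (7 of 10 higher). Over all genes tested, 0% passed, with 452 genes at an unadjusted p under 0.05 by edgeR and 0 genes called by DESeq2. Cdc6 ranged from 77.3 to 95.5 CPM in KO Control with a median of 90.2, whereas values in KO T1D were between 78.3 and 99.6 CPM with a median of 93.0. The groups overlapped for most of their range, and the log2 difference of Cdc6 was 0.046 ± 0.0875 (edgeR adjusted p = 1.0). Mcm3 ranged from 121.8 to 166.7 CPM in KO Control with a median of 151.1, whereas values in KO T1D were between 132.1 and 181.7 CPM with a median of 154.0, a log2 difference of 0.068 ± 0.0851 (edgeR adjusted p = 1.0).

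Mcm7 and Mcm5 had the largest differences in KO mice. Mcm7 ranged from 182.4 to 247.9 CPM in KO Control, whereas values in KO T1D were between 230.1 and 293.2 CPM, with 3 of 6 KO T1D mice above every KO Control mouse and a log2 difference of 0.17 ± 0.0908 (edgeR adjusted p = 1.0). Mcm5 differed by 0.15 ± 0.0866 on the log2 scale. Mcm2, Mcm4, Mcm6, and Cdt1 differed by 0.057 to 0.079 on this scale. Gmnn and Mcm10 were on the other side of 0, at -0.13 ± 0.146 and -0.026 ± 0.0978. KO Control mouse A3766 had the lowest value of its group for 9 of 10 members, and KO T1D mouse A3675 had the highest for 8.

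Whether the response to T1D differed between genotypes was tested with the interaction term, the log2 change in KO minus that in WT. All 10 terms were negative in CPM (5 of 10 in TPM), with a median of -0.24, and none passed. Over all genes tested, 0% passed the edgeR interaction test, with 1467 genes at an unadjusted p under 0.05 and 0 genes called by DESeq2. The term for Cdc6 was -0.44 ± 0.127, with an unadjusted p of 0.00226 and an edgeR adjusted p of 0.479. Those for Gmnn and Cdt1 were -0.41 ± 0.211 and -0.33 ± 0.162, and that for Mcm3 was -0.28 ± 0.123. Thus, the members past the threshold in WT were not shown to respond differently in KO. In TPM, the terms for Mcm4, Mcm5, Mcm6, Mcm7, and Mcm10 were positive instead, from 0.037 to 0.13, against a median gene of 0.20. All 10 CPM terms were still negative without A3905 and A3906, with a median of -0.16 and -0.3 ± 0.108 for Cdc6.

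**Figure D3:**
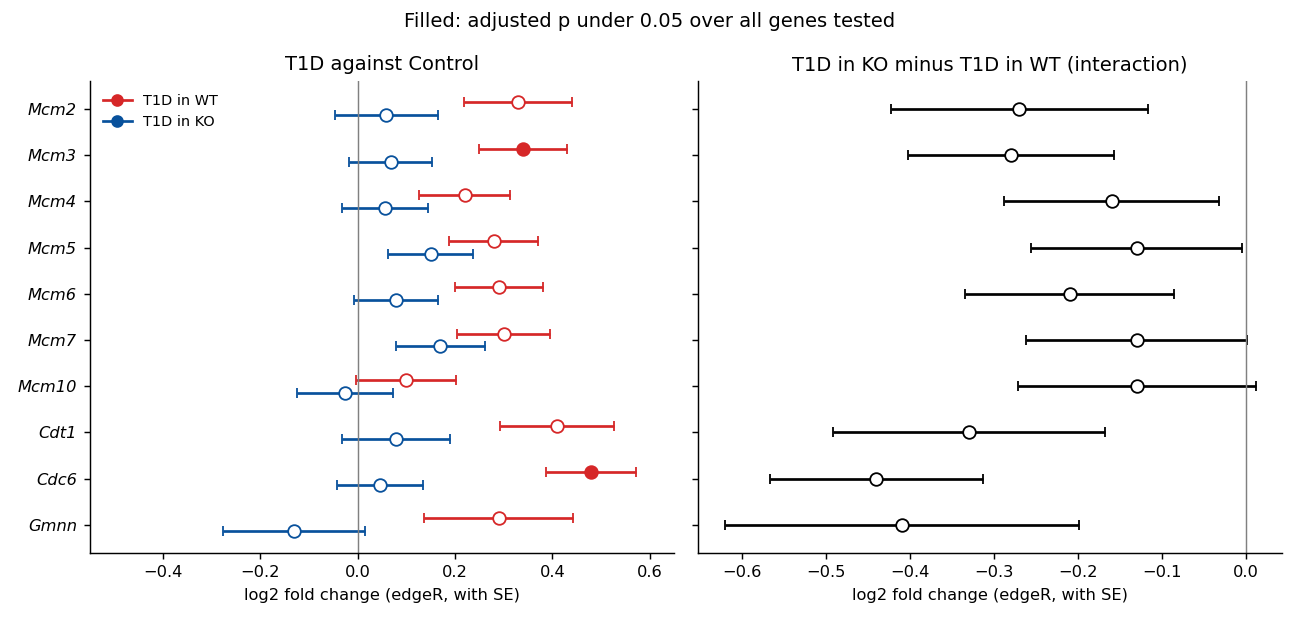
log2 fold change with SE (x axis) of each member (y axis) for T1D against Control in WT and KO mice on the left, and for the interaction on the right, with filled points for an edgeR adjusted p under 0.05. Cdc6 (0.48) and Mcm3 (0.34) were filled in WT, none were filled in KO, and all 10 interaction terms were below 0 in CPM (5 of 10 in TPM) without passing.

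The genotypes were also compared within each condition. KO mice had IDs in the A36 series, apart from KO Control A3766 in A37. WT T1D mice were in the A17 and A39 series, and WT Control mice in A17, A37, and A39. WT T1D and KO T1D thus shared no ID series, so genotype and series cannot be told apart in T1D mice. The interaction above rests on the same mice. In Control mice, 0 of 10 members passed, 8 were higher in KO in CPM (6 in TPM), and the differences ranged from -0.059 for Mcm7 to 0.12 on the log2 scale, while 0.0278% of genes passed (4 genes). With the ID series as a term, all 10 members were lower in KO Control instead, with a median of -0.35. That fit rests on 1 mouse of each genotype for this comparison. In T1D mice, all 10 members were lower in KO than in WT in CPM (5 of 10 in TPM), and 0 passed, while 0.0905% of genes passed (13 genes). The largest differences in T1D mice were -0.37 ± 0.146 for Gmnn (edgeR adjusted p = 0.218), -0.32 ± 0.0875 for Cdc6 (edgeR adjusted p = 0.119), and -0.28 ± 0.111 for Cdt1 (edgeR adjusted p = 0.215). For Cdc6, 3 of 6 KO T1D mice were below every WT T1D mouse. This comparison uses the same WT T1D mice as the comparison with WT Control, including A3905 and A3906. Without this pair, all 10 members were lower in KO T1D in CPM, with a median of -0.1 and 0 passed. Averaged over both genotypes, all 10 members were higher with T1D in CPM (7 in TPM), with a median of 0.20, and 0 passed, while 0.111% of genes passed (16 genes).

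The other genes of DNA replication and the cell cycle were described from lists of 98 genes. In WT mice, 92 of the 98 were higher with T1D in CPM and 14 passed, all upward, with a median log2 difference of 0.27. In TPM, 40 of 98 were higher, with a median of -0.025. Without A3905 and A3906, 86 of 98 were higher and 0 passed. In KO mice, 67 of 98 were higher and 0 passed, with a median of 0.043.

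Genes that mark origins, or that act at the start of S phase, had a pattern close to that of the members in CPM. All 6 subunits of the origin recognition complex, which marks origins, were higher in WT T1D (3 of 6 in TPM), with a median of 0.30, or 0.16 without A3905 and A3906, and 0 passed. The lowest p was for Orc6, at 0.45 ± 0.145 (edgeR adjusted p = 0.0787). Of the S-phase kinases and cyclins, all 6 were higher (4 of 6 in TPM), and Ccne1, the cyclin that partners CDK2 at the start of S phase, rose by 0.52 ± 0.128 on the log2 scale (edgeR adjusted p = 0.0451). Among the factors that join or activate the loaded helicase, such as CDC45 and the GINS complex, all 10 were higher (5 of 10 in TPM), and Donson rose by 0.44 ± 0.109 (edgeR adjusted p = 0.0451).

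Genes that act at the fork were higher in most cases. All 15 genes of the clamp, clamp loader, and fork list were higher in WT T1D (6 of 15 in TPM), and 3 passed. These were Rfc4, a subunit of the clamp loader, at 0.64 ± 0.131 (edgeR adjusted p = 0.0326), Pcna, the sliding clamp, at 0.41 ± 0.106 (edgeR adjusted p = 0.0472), and Rpa1, which binds single-stranded DNA, at 0.29 ± 0.076 (edgeR adjusted p = 0.0494). Rpa1 was level in TPM, at -0.0092. Of 12 replicative polymerase subunits, 11 were higher (2 of 12 in TPM) and 0 passed, with the lowest p for Pola2 (edgeR adjusted p = 0.0872). All 6 nucleotide synthesis genes were higher (3 of 6 in TPM), and Tk1, which phosphorylates thymidine, rose by 0.54 ± 0.144 (edgeR adjusted p = 0.0494).

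The E2F and RB family, which controls transcription of S-phase genes, had 10 of 11 genes higher (6 of 11 in TPM) and 4 that passed. E2f2 rose by 0.62 ± 0.14 (edgeR adjusted p = 0.0374), from 325.7 to 502.0 CPM on average. E2f1 (0.46), E2f8 (0.44), and Rbl1 (0.28) passed as well. E2f1 is known as an activator of transcription, whereas E2f8 and Rbl1 encode repressors. In the mitosis list, all 15 genes were higher (8 of 15 in TPM), and Ccnb1 (0.47), Cdk1 (0.43), Aurkb (0.39), and Kif11 (0.39) rose. In the list of factors that degrade licensing proteins or restrain their degradation, all 7 were higher (3 of 7 in TPM) and 0 passed, with the lowest p for Fbxo5 (0.36, edgeR adjusted p = 0.0514).

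Not all genes named after MCM proteins followed the ring. Mcm8, Mcm9, and Mcmbp, which are not part of the replicative ring, had a median log2 difference of 0.034 in CPM, and Mcmbp was at 0.034 ± 0.0727 (edgeR adjusted p = 0.826). In TPM, all 3 were lower, with a median of -0.23, close to the median gene. The CDK inhibitors, which restrain the cell cycle, had 4 of 7 genes higher in CPM (0 of 7 in TPM), a median of 0.045, and 0 that passed.

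**Figure D4:**
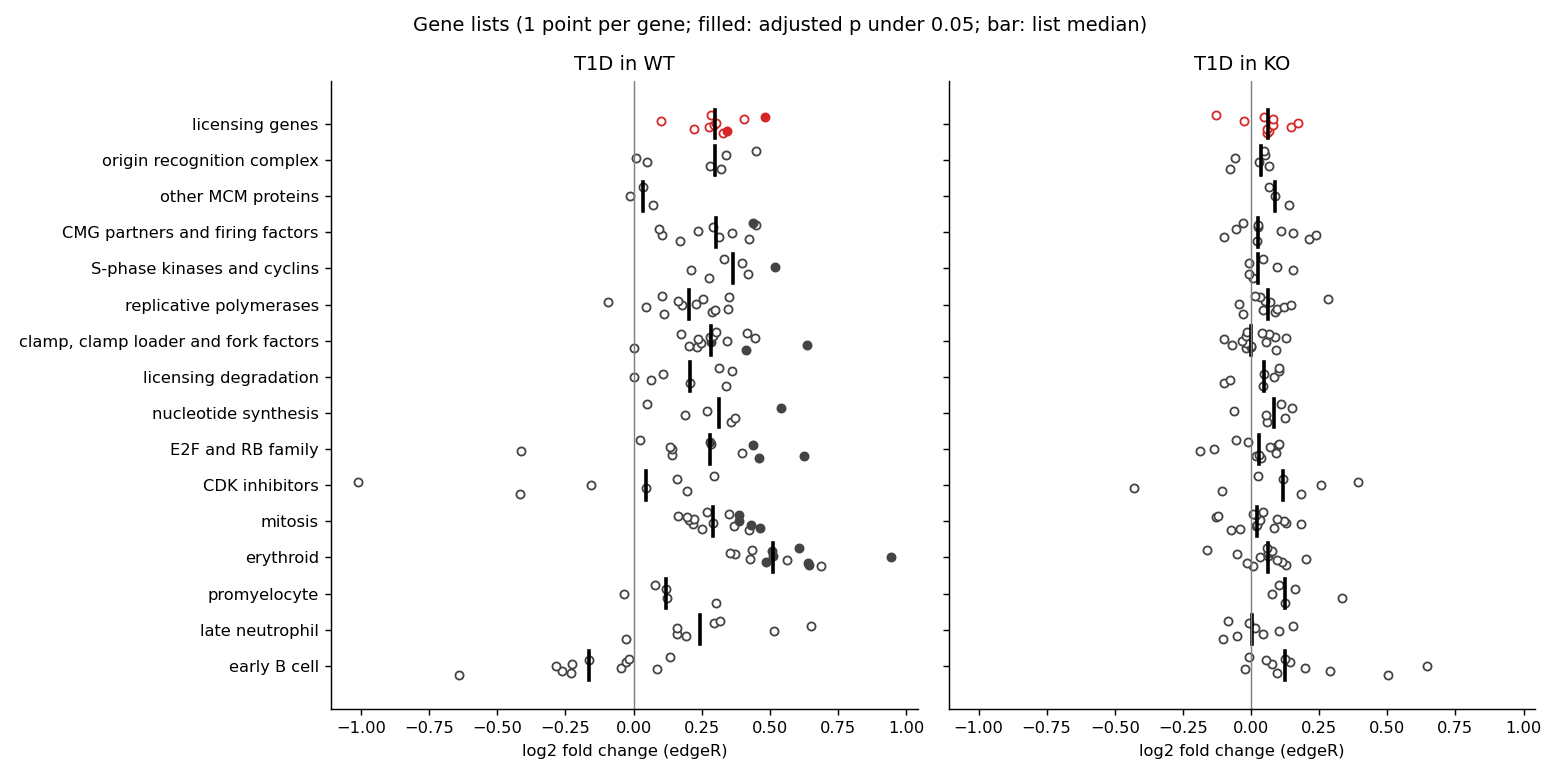
log2 fold change (x axis) of each gene in the licensing, replication, cell cycle, and marrow cell lists (y axis) for T1D in WT on the left and T1D in KO on the right, with filled points for an edgeR adjusted p under 0.05 and bars for list medians. The median of the licensing genes was 0.30 in WT and 0.063 in KO, and that of the erythroid markers was 0.51 and 0.062.

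Across all 23 mice, the members varied together. Over the 15 pairs of Mcm2 to Mcm7, Pearson's r of log2 CPM ranged from 0.819 to 0.947 with a median of 0.89, and the median was 0.875 after group means were removed. With the ring subunits, Cdt1 and Cdc6 had a median r of 0.848 each, and Gmnn and Mcm10 had lower medians of 0.676 and 0.668. Ranked by r with the mean z score of Mcm2 to Mcm7, Cdt1 was at position 50, Cdc6 at 74, Mcm10 at 839, and Gmnn at 860. These correlations share the libraries, their scaling, and their cell content, and are descriptions.

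The 10 tested genes outside the members with the highest r to Mcm2 to Mcm7 were Klf1, Cpox, Fen1, Ccne1, Hars, Rpa1, Blvrb, Rrm2, Ccna2, and Kcnn4, with r from 0.932 to 0.95 over 23 mice. Klf1, an erythroid transcription factor, and Cpox, an enzyme of heme synthesis, were first and second. Fen1, Ccne1, Rpa1, Rrm2, and Ccna2 are genes of S phase. With group means removed, r for these 10 genes ranged from 0.893 to 0.93.

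Erythroid markers moved with the members. In WT mice, 13 of the 14 listed erythroid markers were tested, all 13 were higher in WT T1D in CPM and in TPM, and 7 rose in CPM, including Rhag (0.94 ± 0.202, edgeR adjusted p = 0.0367) and Slc4a1 (0.64 ± 0.143). Their median log2 difference was 0.51 in WT, 0.40 without A3905 and A3906, and 0.062 in KO. Their summed TPM was 2610 to 3353 in WT Control against 3405 to 4694 in WT T1D, and 2352 to 3787 in KO Control against 3051 to 3559 in KO T1D. No listed marker in the table was at 0 in every mouse. The WT groups did not overlap. KO Control mouse A3766 had the lowest mean log2(CPM + 0.5) both for Mcm2 to Mcm7 (7.17) and for the erythroid markers (7.63), and A3905 and A3906 had the highest for both, with 7.92 and 7.9 for Mcm2 to Mcm7 and 8.88 and 9.07 for the erythroid markers. The part of erythroid cells in the result was not tested, and in bulk libraries more cells of a type and more RNA per cell cannot be told apart.

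Markers of other cell types were compared in the same way, and in TPM with limma on log2(TPM + 1). The promyelocyte markers, such as Mpo and Elane, were higher for 4 of 5 genes in WT T1D in CPM, with a median of 0.12 and 0 passed, but for 1 of 5 in TPM, with a median of -0.15. Late neutrophil markers had a median of 0.24 in CPM and -0.077 in TPM, where 2 of 8 were higher. Early B cell markers were higher for 2 of 11 genes in CPM and for 0 of 11 in TPM, with medians of -0.16 and -0.6, and 0 passed. Without A3905 and A3906, the CPM medians were -0.0088 for promyelocyte, -0.035 for late neutrophil, and 0.33 for early B cell markers, so all 3 changed sign.

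Osteoblast markers were lower for 8 of 8 genes on both scales, with a median of -0.77 in CPM and -1.62 in TPM. In CPM, Ibsp (-0.78 ± 0.149, edgeR adjusted p = 0.0236) and Runx2 (-0.66 ± 0.161, edgeR adjusted p = 0.0451) fell, and 7 of 8 passed in TPM. On the TPM scale, 5164 of all 14364 genes tested passed, 83 up and 5081 down, so passing there is not particular to these lists. Without A3905 and A3906, the CPM median was -0.37 and none of them passed. Growth plate chondrocyte markers were lower for 6 of 6 genes on both scales, with a CPM median of -1.94 (-1.46 without the pair) and 0 passed, and a TPM median of -1.56 and 5 passed. Osteocyte markers were split in CPM, with 2 of 6 higher, a range of -0.99 to 2.13, and a median of -0.36 (-0.42 without the pair), and 0 passed. In TPM, 1 of 6 was higher, the median was -0.7, and 4 of 6 passed.

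For skeletal muscle markers, 0 passed on either scale, with a median of 0.17 in CPM (0.21 without the pair) and 0.12 in TPM. Megakaryocyte markers had a CPM median of 0.044 and 0 passed, but 5 of 5 were higher without A3905 and A3906, with a median of 0.35, and 0 of 5 were higher in TPM. Their summed TPM was 653.2 and 672.2 in this pair and at least 1350 in every other mouse. All 5 tested T cell markers were lower in WT T1D on both scales, with a CPM median of -0.39 (-0.45 without the pair) and a TPM median of -0.51. Cd4 (-0.67) passed in CPM, and 5 of 5 passed in TPM, where 5164 of all 14364 genes tested passed. The summed TPM of the T cell markers was 29.0 to 39.5 in WT Control and 15.4 to 23.7 in WT T1D, without overlap. The part of these cell types in the members' values was not tested.

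**Figure D5:**
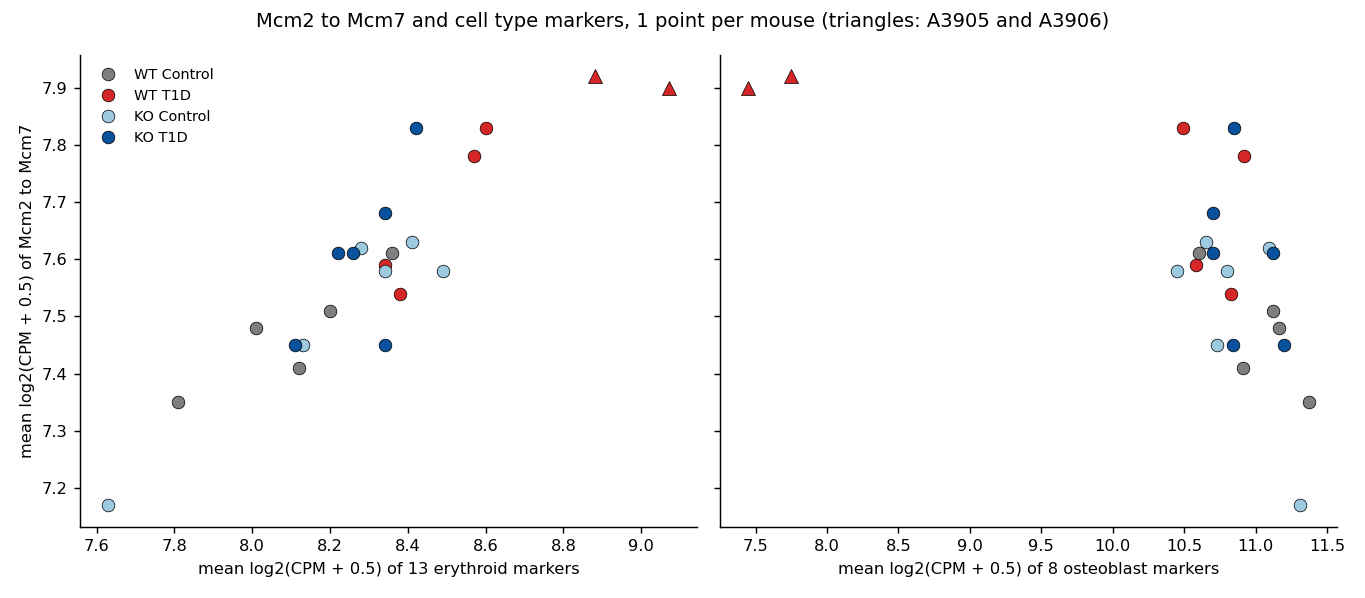
Mean log2(CPM + 0.5) of Mcm2 to Mcm7 (y axis) against the same mean of 13 erythroid markers (left) and 8 osteoblast markers (right), with 1 point per mouse colored by group and triangles for A3905 and A3906. The mouse with the lowest Mcm2 to Mcm7 mean (7.17) also had the lowest erythroid mean (7.63), and the triangles had the lowest osteoblast means (7.75 and 7.45).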

How the data were processed

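The authors deposited TPM values and unnormalized RSEM expected counts, rounded to integers. Both came from paired-end, dUTP-stranded poly(A) reads cleaned by SOAPnuke, with HISAT and Bowtie2 as aligners and GRCm38.p6 as the genome. Whether counting used strand was not given in the sources used here. Libraries were grouped by their labels. The 14364 genes that reached 10 counts in 5 or more mice were tested in R 4.3.3 with edgeR 4.0.16 (TMM, quasi-likelihood, genotype by diabetes model, two-sided), with Benjamini-Hochberg adjusted p under 0.05 as the threshold. SEs were calculated from the fold change and its F statistic. TPM was tested with limma 3.58.1 on log2(TPM + 1), and DESeq2 1.42.0 was an alternative. A model with mouse ID series as a term was added after the data were seen. Python 3.11.15, pandas 2.3.3, numpy 2.4.6, and matplotlib 3.10.9 were used for summaries.

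The members, gene lists, and tests were chosen with earlier results of these data known. Genes outside the members were named if they passed the threshold or had the lowest p of their list for T1D in WT. Not every such gene is reported here. In simulated data with 200 of 14364 genes changed by 1 on the log2 scale for T1D in WT, 76% were found and 5% of calls were false. That change was larger than those of the members (0.10 to 0.48), so how often changes of their size are found was not measured. No 2 libraries of a group were near-identical (chi-square per gene of 2.77 to 6.12 over 55 pairs). Gene positions were those of GRCm38, and promoters were from RefSeq.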

Additional observations from a re-analysis of the deposited data

Results flagged for a closer look

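Of 40 combinations of a member and a group, 2 had a mouse far from the others of its group in CPM (gap over range above Dixon's 95% critical value), where chance alone flags about 1 in 20 groups. In KO Control, Mcm5 in mouse A3766 was the lowest at 151.9 CPM, and the other KO Control mice were at 199.2 CPM or above. In KO T1D, Mcm7 in mouse A3675 was the highest at 293.2 CPM, and the other KO T1D mice were at 250.2 CPM or below.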

How the results depend on the processing

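For T1D in WT, the number of members past the threshold was 2 with RLE normalization, a minimum mean of 1 CPM, or median-centered TPM, 1 with library sizes only, no filter on low counts, or mouse ID series as a term, 6 with DESeq2 or with mice A36 to A39 only, and 0 with limma on log2(TPM + 1) or log2(TPM + 0.1), with the WT groups fitted alone, or without A3905 and A3906. Leaving out each mouse in turn gave 0 to 7 members. It was 0 without WT Control A3767, A3903, A3904, or A3907 or WT T1D A3905 or A3906. In those fits, at most 6 of all genes tested passed upward and at most 7 downward. The number was 6 members without WT T1D A1764, where 583 of all 14328 genes tested passed upward and 380 downward. Without WT T1D A3909 it was 7 members, where 675 of all 14341 genes tested passed upward and 587 downward. Cdc6 passed in 17 of 23 such fits and Mcm3 in 6, and no member changed sign in WT. All genes past the threshold for T1D in WT numbered 334 by edgeR, 1002 by DESeq2, 2211 in mice A36 to A39, 266 with library sizes only, 88 without the filter, 503 in median-centered TPM, 5164 in log2(TPM + 1) (83 up and 5081 down), and 0 with the WT groups alone or without A3905 and A3906. For KO against WT in T1D, 1 member passed with DESeq2 and 2 with mice A36 to A39 only, where 1.66% and 10.8% of all genes passed. For T1D averaged over genotypes, 2 members passed with DESeq2 and 2 with mice A36 to A39 only, where 1.73% and 3.75% of all genes passed. In that comparison, 0 to 2 members passed when 1 mouse was left out (2 without WT T1D A3909).

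In log2(TPM + 1), WT differences changed sign for Mcm4 (-0.07), Mcm5 (-0.021), Mcm10 (-0.17), and Gmnn (-0.017), with -0.071, -0.021, -0.18, and -0.017 in log2(TPM + 0.1). Cdc6 in KO was -0.0023 in both. Interaction terms changed sign for Mcm4 (0.085 and 0.086), Mcm5 (0.13 in both), Mcm6 (0.037 in both), Mcm7 (0.13 in both), and Mcm10 (0.12 in both). The T1D difference in KO, when 1 mouse was left out, ranged from -0.016 to 0.11 for Mcm2, from -0.0079 to 0.099 for Mcm4, and from -0.091 to 0.00043 for Mcm10. With mouse ID series as a term, chosen after the data were seen, T1D differences in KO changed sign for Mcm2 (-0.011) and Mcm4 (-0.0023). In that model, the KO against WT comparisons rest on the A37 series, with 1 mouse of each genotype. All 10 members were then lower in KO Control, from -0.56 to -0.14, whereas 8 were higher in the main model. The differences in T1D mice ranged from -1.17 for Gmnn to -0.48 for Cdt1. No paired analysis was possible because no mouse number was shared between groups. The counts per member were 219 or more.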
